A study of Mus musculus with 20 samples.

Results

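Collagen chains are described here in the epididymal fat of obese mice. The chains were taken as all probe sets whose gene symbol is Col, a number, a and a number, with the brightest probe set standing for a gene. This gave 42 chains of the 19505 genes on the array, each measured by 1 probe set. Whole epididymal fat pads of 20 male C57BL/6 mice were hybridised to expression arrays, 1 array per mouse. Every mouse was homozygous for a floxed Tnf gene (TNF-αFlox/Flox), which encodes the inflammatory cytokine TNF-α. The 10 mice called wt lacked Cre (LyzMcre-/-) and so kept Tnf, and their 10 littermates called cre carried 1 copy of Cre (LyzMcre+/-), so that Tnf was to be deleted in cells that use the LyzM promoter. That promoter is active in macrophages and in other myeloid cells such as neutrophils, so the deletion is not one of macrophages alone. Both groups were raised on chow and changed at 10 weeks of age to a purified diet in which fat gave 40% of calories, and after 18 weeks on it tissue was taken, at 28 weeks. No mice on chow alone are among these groups, so the values show obese fat only. The arrays fell into 2 batches with 5 mice of each genotype in both.

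Collagens are built of 3 chains wound into a triple helix. The fibrillar types, above all types I and III, form the ropes that give tissue its tensile strength. Type IV forms the sheet-like network of basement membranes, which surround each adipocyte and each capillary. Type VI forms beaded filaments next to those membranes and is a major matrix collagen of fat. In adipose tissue fibroblasts and progenitor cells make most fibrillar collagen, and adipocytes and endothelial cells make much of the basement membrane. Obesity is known for deposition of collagen around adipocytes and around crowns of macrophages. Adgre1 encodes a surface protein used as a marker of mouse macrophages, and its signal served here as a measure of macrophage transcripts in each fat pad.

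Signals are log2 values, so that a difference of 1 is a doubling. The medians of the arrays spanned 6.49 to 6.58 and their pairwise correlations 0.934 to 0.989. Tnf had a mean of 6.66 ± 0.69 in wt fat and was at 4.67 ± 0.43 in cre fat (SD, n = 10 each, difference −1.99, limma adjusted p = 0.000822), and no cre mouse reached a wt mouse. Adgre1 was at 12.79 ± 0.86 in wt and 12.52 ± 1.02 in cre (difference −0.28, 95% interval −1.06 to 0.51, limma adjusted p = 0.912). Of 21 other genes of a macrophage list, 19 were lower and 2 higher in cre (median difference −0.38). None of them passed adjustment, and 50.7% of all probe sets were higher in cre. Genes of one cell type vary together, so these counts carry no test. Adipocyte markers were high in every mouse, with a mean of the 7 markers from 15.3 to 17.6 in wt and from 16.9 to 17.7 in cre. All 7 were higher in cre (median difference 0.40), none past adjustment. Some pads held transcripts of other tissues or few macrophages. The mouse wt 6 had the lowest adipocyte mean (15.3) and endothelial mean (8.49), and its mean of 5 markers of epididymis, testis and seminal vesicle was 9.45 against 4.52 to 5.84 in the other 19 mice. The mean of 4 liver markers was 16.2 in wt 4 and 13.2 in wt 9, while it spanned 6.43 to 10.5 over the remaining wt mice and 8.14 to 14.7 over the cre mice. The mean of 8 macrophage markers was lowest in cre 9 (10.83) and cre 7 (10.99) and ran from 11.8 to 13.5 in the other 18 mice. Values without these mice are given below where they matter.

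Whether the probe sets see a chain at all was read against 1414 probe sets of olfactory and vomeronasal receptors, genes that fat is not known to use. The mean signals of 31 chains lay above the 95th percentile of these receptors, which was 5.64, and those of 11 chains lay at or below it. The 11 were Col11a1, Col24a1 and Col27a1 of the fibrillar class, Col4a3 and Col4a5 of the basement membrane network, Col6a4 of the beaded filaments, Col9a1 and Col19a1 of the fibril-associated class, and Col10a1, Col17a1 and Col26a1. Signals of these 11 chains may hold little but background, and a mean above the line is no proof that a chain is detected. Apart from this split, levels of different probe sets were not set against each other. The 5 markers of cartilage and bone, tissues that use several of these chains, had means from 4.77 to 5.59 in all mice.

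No collagen chain differed between genotypes past the adjustment for all probe sets, and Tnf was the only probe set of 22206 that did (0.0045%). Of the 42 chains 23 were higher and 19 lower in cre, with a median log2 difference of 0.02 beside 0.0034 for all probe sets. An unadjusted p under 0.05 was reached by 1 chain, Col6a6, where 6.29% of all probe sets reached it. The groups overlapped for every chain, and they were apart for 0.00901% of all probe sets. In whole tissue, fewer cells that make a collagen and less of its RNA per cell cannot be told apart.

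**Figure D1:**
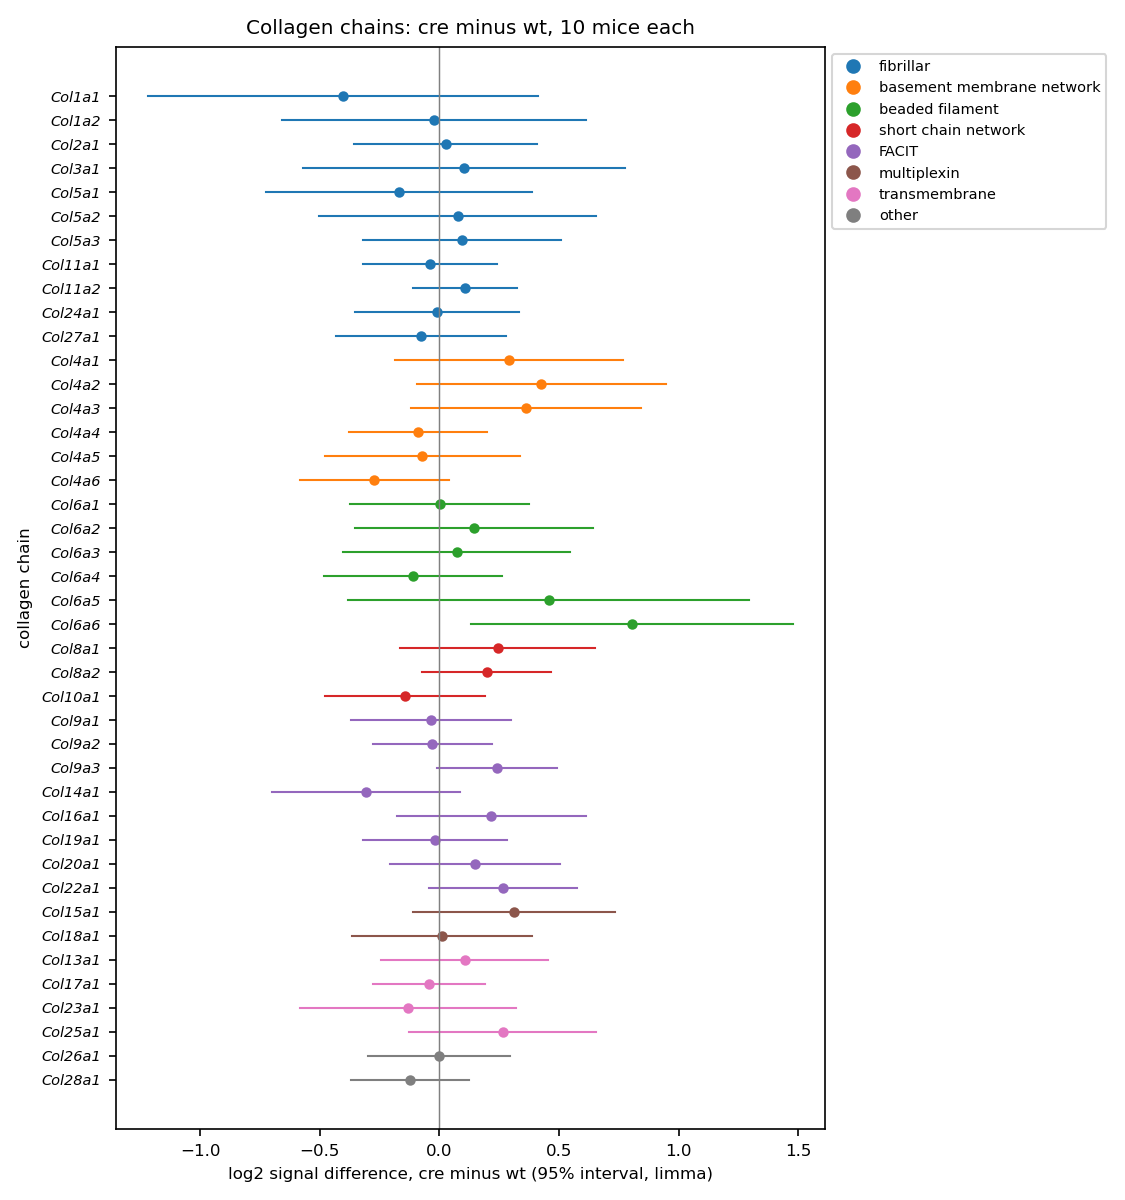
Log2 signal difference, cre minus wt, for the 42 collagen chains (points) with 95% intervals of the limma fit with genotype and batch (lines), coloured by collagen class, 10 mice per genotype. The interval of Col6a6 lies above 0 from 0.13 to 1.48, and those of the other chains hold 0.

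Among the fibrillar collagens, 11 chains were measured, and cre minus wt was above 0 for 5 and below 0 for 6, from −0.40 to 0.11, with 6 above 0 after quantile normalization. Col1a1 encodes the α1 chain that supplies most of type I collagen. Its signal in wt mice was 11.43 at the lowest, 12.32 at the median and 13.89 at the highest, and in cre mice 9.70, 12.20 and 13.23. The lowest of all was cre 9 and the highest wt 5, and 5 of the 10 cre mice were under the average of the wt group. With 10 mice a group, mean and SD were 12.41 ± 0.86 for wt and 12.01 ± 1.04 for cre, a difference of −0.40 (SE 0.39, limma adjusted p = 0.878). It was −0.14 without cre 9 and −0.22 without wt 5, and ranged from −0.56 to −0.14 when any 1 mouse was left out. Col1a2, the partner chain in type I collagen, ran from 12.19 over 13.27 to 14.46 in wt and from 11.69 over 13.35 to 13.93 in cre. Its difference of −0.02 (95% interval −0.66 to 0.61, limma adjusted p = 0.995) changed sign with the processing. Type III collagen is made of Col3a1 alone and mixes with type I in soft tissue. Col3a1 had 15.21, 16.12 and 17.45 in wt and 14.65, 16.42 and 17.34 in cre as lowest, median and highest signals. The difference was 0.10 (SE 0.33, limma adjusted p = 0.963), and again wt 5 was highest and cre 9 lowest. Both signs occurred within batches, with −0.28 in batch 1 and 0.49 in batch 2.

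The mice wt 5 and cre 9 thus stood at the ends for all 3 chains. Type V collagen sits within fibrils and limits their width. Its chain Col5a3, known in fat and muscle, ran from 6.35 over 6.98 to 7.57 in wt and from 6.17 over 7.11 to 7.74 in cre, so that the cre mice spanned the whole wt range. The difference was 0.10 (95% interval −0.32 to 0.51, limma adjusted p = 0.947). Col5a1 differed by −0.17 and Col5a2 by 0.08. Col2a1 and Col11a2, chains of cartilage fibrils, had mean signals of 5.76 and 7.67.

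The stretches before the transcription start of Col1a2 and Col3a1 are shown because the signals of these chains went together over the mice, and that of Col6a3 because it is the type VI chain described most closely. They come from RefSeq (GRCm38.p6) and end at the base before the outermost start of the gene, 5′ to 3′ on its strand: chr6:4505368-4505617 (plus) for Col1a2, chr1:45311288-45311537 (plus) for Col3a1 and chr1:90844002-90844221 (minus) for Col6a3. The stretches of Col1a2 and Col3a1 hold 250 bases. That of Col6a3 holds 220, because 30 bases of its listed stretch lie inside the gene and are not shown. Capitals mark 4 motifs on either strand. The TATA box is TATAAA, a common site of nuclear factor Y is CCAAT, the GC box bound by Sp1 is GGGCGG, and a run that holds the core to which Smad proteins bind is CAGACA.
Col1a2: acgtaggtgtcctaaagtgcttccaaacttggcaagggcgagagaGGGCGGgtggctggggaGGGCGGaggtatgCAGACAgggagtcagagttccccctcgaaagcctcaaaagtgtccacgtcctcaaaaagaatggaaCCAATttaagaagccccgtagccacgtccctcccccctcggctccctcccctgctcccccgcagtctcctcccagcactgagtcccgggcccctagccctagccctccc
Col3a1: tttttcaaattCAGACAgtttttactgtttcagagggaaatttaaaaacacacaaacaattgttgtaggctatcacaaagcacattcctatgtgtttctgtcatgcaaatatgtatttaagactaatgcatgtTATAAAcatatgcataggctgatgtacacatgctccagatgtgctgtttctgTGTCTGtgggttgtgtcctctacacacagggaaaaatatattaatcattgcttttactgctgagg
Col6a3: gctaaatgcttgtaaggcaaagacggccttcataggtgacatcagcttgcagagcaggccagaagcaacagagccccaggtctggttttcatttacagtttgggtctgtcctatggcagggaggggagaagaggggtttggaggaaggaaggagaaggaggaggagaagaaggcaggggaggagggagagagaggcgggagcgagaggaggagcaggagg

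The Col1a2 stretch holds 2 GC boxes, 1 run of CCAAT and 1 of CAGACA, and the Col3a1 stretch holds 1 TATAAA and 2 CAGACA, 1 of them on the other strand. The Col6a3 stretch holds none of these letter runs. Of 32851 stretches of 250 bases before a listed start in RefSeq, TATAAA is in 12.4%, CCAAT in 33.8%, GGGCGG in 32.7% and CAGACA in 17.1%. Stretches were listed for 34 of the 42 chains, 37 in all, and held these motifs in 5, 12, 21 and 8 cases. A match describes the letters only, and no binding was measured.

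In the basement membrane network, cre minus wt was above 0 for 3 of the 6 type IV chains and below 0 for 3. Col4a1 and Col4a2 form the common type IV network of vessels and fat cells. Their genes lie head to head on chromosome 8 (Col4a1 11198423 to 11312889, Col4a2 11312805 to 11449287, mm10) and overlap by 85 bases. Col4a1 had signals of 8.72, 10.45 and 10.91 in wt and 9.71, 10.64 and 10.99 in cre (lowest, median and highest). Only wt 6 lay below all cre mice, and 9 of 10 cre mice lay above the wt mean. The difference was 0.29 (SE 0.23, limma adjusted p = 0.848), and 0.11 without wt 6. Col4a2 had 10.95, 12.61 and 13.66 in wt and 12.09, 13.01 and 13.58 in cre. Here too wt 6 was lowest, and 8 cre mice lay above the wt mean. The difference of 0.43 (95% interval −0.09 to 0.95, limma adjusted p = 0.818) was 0.24 without wt 6, whose endothelial and adipocyte markers were the lowest of all mice.

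The other type IV chains belong to specialised membranes such as those of the kidney and the eye. Col4a6 was among the 3 chains with the smallest p for genotype. Its signals were 5.42, 5.77 and 6.54 in wt and 5.28, 5.51 and 6.10 in cre, with 8 cre mice below the wt mean. The difference was −0.27 (SE 0.15, unadjusted p = 0.0854, limma adjusted p = 0.810) at a mean signal of 5.69, just above the 95th percentile of the receptor probe sets. Col4a3 differed by 0.36, Col4a4 by −0.09 and Col4a5 by −0.07.

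Among the beaded filament collagens, cre minus wt was above 0 for 5 of 6 chains. Col6a3 encodes the long chain of type VI collagen, whose cleaved end, endotrophin, is released by fat. Its signals were 11.78, 12.49 and 13.29 in wt and 11.64, 12.72 and 13.47 in cre, with wt 6 and cre 7 at the low ends and the ranges nearly the same. The difference was 0.07 (95% interval −0.40 to 0.55, limma adjusted p = 0.963). Col6a1 and Col6a2, its classical partners, had differences of 0.0016 and 0.15.

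Col6a6, a later found chain of type VI collagen, had the smallest p of all chains. Its signals were 5.81, 7.53 and 8.73 in wt and 7.31, 8.32 and 9.54 in cre. Only cre 4, cre 5 and cre 8 lay above every wt mouse, only wt 1, wt 6 and wt 10 lay below every cre mouse, and 8 of 10 cre mice lay above the wt mean. Means were 7.58 ± 0.82 in wt and 8.38 ± 0.74 in cre, a 1.75-fold higher level in cre (log2 difference 0.80, SE 0.32, unadjusted p = 0.0215), which did not pass adjustment over all probe sets (limma adjusted p = 0.770). Batch 1 gave a difference of 0.35 and batch 2 one of 1.26, and it was 0.58 without wt 4, wt 6 and wt 9 (unadjusted p = 0.0728 in limma). That run left out wt mice only. The mice cre 4, cre 10 and cre 1 stayed in, with liver marker means of 14.7, 14.3 and 13.6 against 13.2 in wt 9. Col6a6 was the only chain in the selection the study states, an unadjusted p under 0.05 with at least 1.5-fold either way, which took 232 probe sets (1.04%). Its neighbour on chromosome 9, Col6a5, 27823 bases away, differed by 0.46 (95% interval −0.38 to 1.29, limma adjusted p = 0.863), with 8.92 in wt 6 and 12.57 in wt 8 as the ends.

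**Figure D2:**
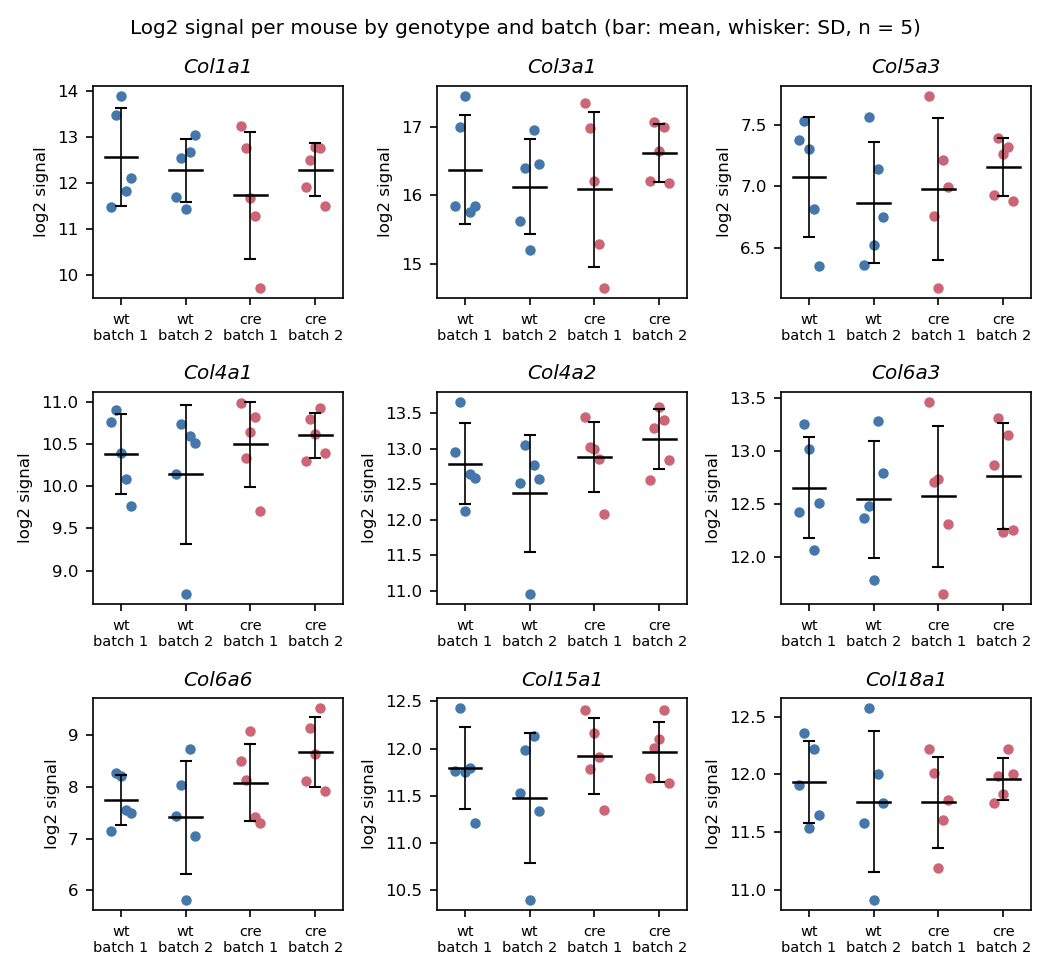
Log2 signal of 9 collagen chains by genotype and batch, 1 point per mouse, with the mean (bar) and SD (whisker) of 5 mice. The wt and cre points overlap for each chain, and wt 6 is the lowest point of wt batch 2 for Col4a1 (8.72), Col4a2 (10.95), Col6a6 (5.81) and Col15a1 (10.39).

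Multiplexins bind basement membranes to the matrix around them, and the end of Col18a1 is cleaved to endostatin, an inhibitor of vessel growth. Col15a1 had 10.39, 11.76 and 12.43 in wt and 11.36, 11.96 and 12.41 in cre, and 8 cre mice lay above the wt mean. The difference was 0.31 (SE 0.20, limma adjusted p = 0.826), and 0.17 without wt 6. Col18a1 had 10.91, 11.83 and 12.58 in wt and 11.19, 11.91 and 12.22 in cre, so that the cre range lay within that of wt. The difference was 0.01 (95% interval −0.37 to 0.39, limma adjusted p = 0.996).

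The 8 fibril-associated chains, which coat fibrils and carry interrupted helices, had differences from −0.31 for Col14a1 to 0.27 for Col22a1. Col9a3 had the second smallest p of all chains. Its signals were 5.61, 5.99 and 6.17 in wt and 5.80, 6.15 and 6.72 in cre, with 8 cre mice above the wt mean, and the difference was 0.24 (SE 0.12, unadjusted p = 0.0602, limma adjusted p = 0.801). The 3 short chain network chains differed by −0.14 to 0.24 and the 4 transmembrane chains by −0.13 to 0.26. Col28a1 differed by −0.12, while Col26a1 had a mean of 4.25 in both genotypes.

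Batches differed little in the deposited values, which may have been adjusted for batch before deposit. Batch 2 minus batch 1 lay between −0.14 and 0.25 for the 42 chains, and 0 chains and 0 probe sets passed adjustment (0%). Unadjusted, 0 chains and 127 probe sets (0.572%) had a p under 0.05 in limma, fewer than the 5% that this threshold gives where batches do not differ at all. Whether the values had been adjusted for batch was not tested. The genotype difference did not differ between batches past adjustment for any chain, nor for any probe set (0%, and 0 chains unadjusted beside 7.41% of probe sets), but its point values did. The interaction was above 0 for 30 of 42 chains, against 53.4% of all probe sets. Col1a1 had a difference of −0.82 in batch 1 and 0.01 in batch 2, and Col4a2 had 0.09 and 0.76.

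Mice varied together across many chains. Of the 31 chains above the receptor percentile, wt 6 was the lowest wt mouse for 13 and cre 9 the lowest cre mouse for 12, while wt 3 and cre 1 were the highest mouse of their genotype for 10 each. How often these mice stood at the ends over all probe sets was not counted. The counts are therefore not shown to be particular to collagens. For 12 pairs of partner chains, signals were centred on the mean of each genotype and batch and correlated over the 20 mice, with 100000 permutations within these 4 cells and adjustment over the 12 pairs. Several chains of one fibril went together, but so did chains of different structures, such as Col1a1 with Col6a2 (r = 0.85) and Col5a1 with Col15a1 (r = 0.86). The permutations set each pair against shuffled mice and not against other pairs of chains. Col1a1 and Col1a2 had a Pearson r of 0.95 (Spearman rho 0.95, permutation p = 1e-05, the smallest these permutations can give, adjusted 4e-05). Col1a1 and Col3a1 had r = 0.95 (rho 0.90, adjusted permutation p = 4e-05), and Col3a1 and Col5a2, which lie 24624 bases apart on chromosome 1, had r = 0.89 (rho 0.88, adjusted permutation p = 6e-05). These 3 relations held within each genotype, with r from 0.88 to 0.96, and without the 2 mice farthest from the median of the first chain, with r from 0.85 to 0.93. Leaving out such mice ended the call for Col5a1 and Col5a2, where r went from 0.63 (rho 0.54, adjusted permutation p = 0.0112) to 0.49 (adjusted permutation p = 0.108).

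Partners of the other networks gave a mixed picture. Col6a1 and Col6a2, 85161 bases apart on chromosome 10, had r = 0.90 (rho 0.88, adjusted permutation p = 4e-05), and both were less closely tied to Col6a3, with r = 0.58 (rho 0.62, adjusted permutation p = 0.0192) and r = 0.66 (rho 0.70, adjusted permutation p = 0.0109). Col4a1 and Col4a2 had r = 0.87 (rho 0.87, adjusted permutation p = 0.000744), which was 0.67 without the 2 mice farthest out. The X-linked pair Col4a5 and Col4a6 had r = 0.54 (rho 0.46, adjusted permutation p = 0.0189) but 0.27 without such mice (adjusted permutation p = 0.332). Col15a1 and Col18a1 had r = 0.67 (rho 0.54, adjusted permutation p = 0.018), and 0.39 without such mice (adjusted permutation p = 0.241). Within genotypes several of these pairs had unlike values, a contrast that was not tested. Col15a1 and Col18a1 had r = 0.85 in wt and 0.21 in cre, Col6a1 and Col6a3 had 0.80 and 0.40, Col6a2 and Col6a3 had 0.83 and 0.51, and Col4a5 and Col4a6 had 0.41 and 0.72. The pairs Col4a3 with Col4a4 and Col8a1 with Col8a2 had r = 0.05 (rho −0.03, adjusted permutation p = 0.855) and r = −0.19 (rho −0.08, adjusted permutation p = 0.536).

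**Figure D3:**
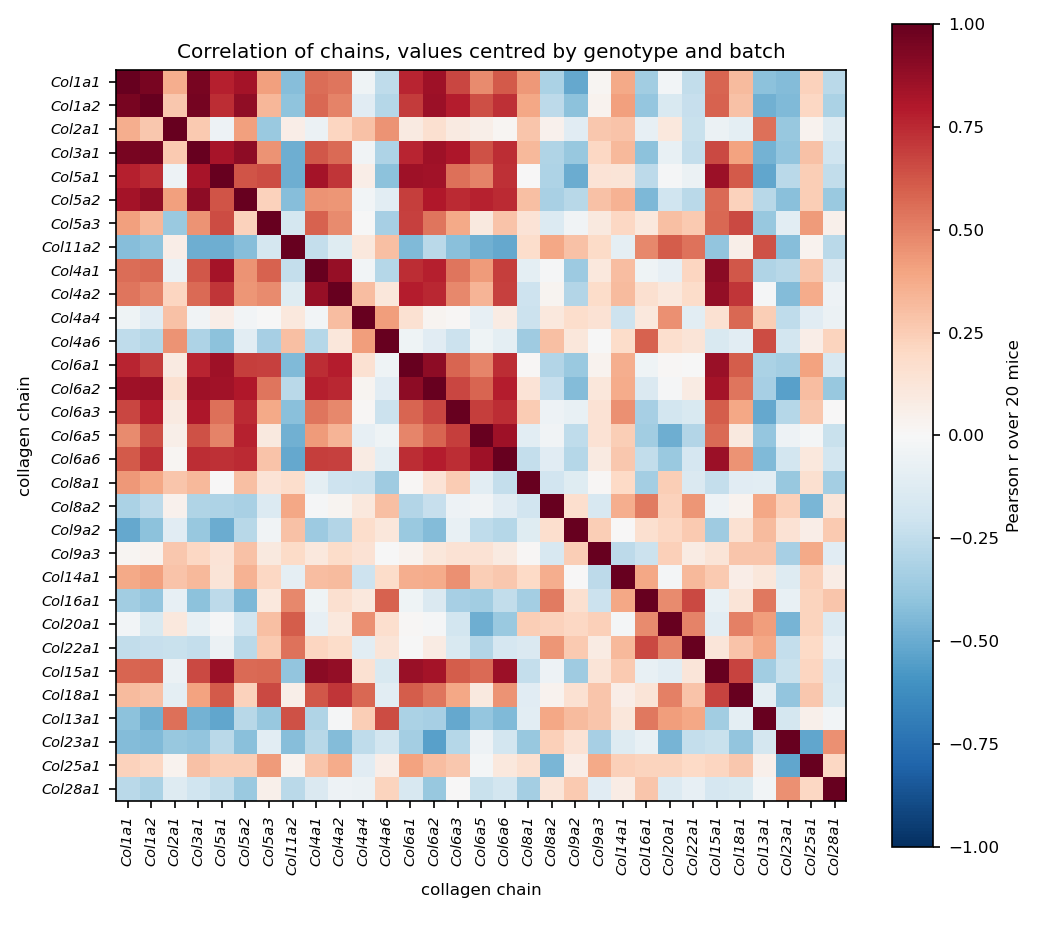
Pearson r between the 31 collagen chains above the receptor percentile over 20 mice, after centring on genotype and batch, with red for positive and blue for negative r and chains ordered by class. A block of Col1a1, Col1a2, Col3a1, Col5a1 and Col5a2 (r of Col1a1 with the others from 0.78 to 0.95) extends to Col6a1, Col6a2 and Col6a3, and Col4a1 and Col4a2 run with Col15a1 (r 0.90 and 0.88).

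By the same centred values Col15a1 was as close to Col4a1 (r = 0.90) and Col4a2 (r = 0.88) as these were to each other, and Col6a6 went with Col6a5 and Col15a1 (r = 0.85 each), which are given as descriptions. Col9a2 and Col23a1 ran against Col1a1 (r = −0.51 and −0.44). Outside the collagens, the genes most like Col1a1 over the 20 mice were Gpr153 (r = 0.92), Fbln2, a matrix glycoprotein (0.90), Loxl1, a lysyl oxidase (0.90), Mfap2, a microfibril protein (0.90), and Ensa (0.87). Those most like Col4a1 were Tlcd2 (0.90), Pcolce2, an enhancer of procollagen processing (0.90), the chemokine receptor Ackr3 (0.89), Nacc2 (0.88) and Nid2, a basement membrane nidogen (0.88). Those most like Col6a3 were Lamc1, a laminin chain (0.86), Itga11, a collagen-binding integrin (0.85), the transcription factor Tcf12 (0.85), the chemokine Cxcl12 (0.83) and Slfn5 (0.82). All 20 mice were kept for the values of this paragraph. Among wt mice, wt 6 was lowest for Col1a1, Col4a1, Col4a2, Col6a3 and Col15a1, and its part in these values was not tested.

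Macrophage transcripts and collagens were related chain by chain within each genotype, as the slope of a chain on Adgre1 with batch in the fit. In wt mice no chain passed adjustment, beside 0.554% of all probe sets. Slopes were above 0 for 12 chains and below 0 for 30, with a median of −0.06 beside −0.01 for all probe sets, of which 46.9% had slopes above 0. This lean rested on wt 3, without which 20 chains were above 0 and 22 below, with a median of −0.01 beside −0.02. With all mice, all 6 type IV chains, both multiplexins and all 8 fibril-associated chains had wt slopes below 0, 1 of the 8 turning above 0 after quantile normalization. Unadjusted, Col24a1 (0.33, SE 0.10, p = 0.00709) and Col6a4 (−0.33, SE 0.12, p = 0.0179) passed 0.05 in limma, where 11.1% of all probe sets did, and both were among the 11 chains near background. The wt slope was 0.17 for Col1a1 (95% interval −0.50 to 0.83), 0.30 for Col1a2 (−0.28 to 0.88) and 0.11 for Col3a1 (−0.46 to 0.67). Without wt 5 and wt 6, the mice with the fewest adipocyte transcripts, these slopes were −0.55, −0.31 and −0.53.

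In cre mice the slopes of 3 chains passed adjustment, all of types I and III and all above 0, beside 3.28% of all probe sets in that direction. Col1a2 had 0.65 log2 units per log2 unit of Adgre1 (SE 0.13, limma adjusted p = 0.0108), Col3a1 0.72 (SE 0.16, limma adjusted p = 0.0139) and Col1a1 0.80 (SE 0.21, limma adjusted p = 0.0470). Unadjusted, Col6a3 (0.46), Col5a2 (0.48) and Col6a6 (0.44) also had slopes above 0, and Col4a3 (−0.45) and Col4a5 (−0.42) below 0, 8 chains of 42 beside 17.1% of all probe sets. Both Col4a3 and Col4a5 were among the 11 chains near background. The calls of Col1a1, Col1a2 and Col3a1 depended on mice at the low end of the Adgre1 range. Adgre1 was 10.66 in cre 9 and 11.01 in cre 7 and from 12.22 to 13.91 in the other 8 cre mice, and the Col1a1 signals of these 2 mice were 9.70 and 11.28 against 11.48 to 13.23 in the other 8. Without both mice 0 chains and 0 of all probe sets passed adjustment, and the slopes were 0.35 for Col1a2, 0.30 for Col3a1 and 0.25 for Col1a1.

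Single mice decided the calls. Without cre 9 alone 0 chains passed, with limma adjusted p-values of 0.144 for Col1a2, 0.175 for Col3a1 and 0.430 for Col1a1. The slopes without cre 9 were 0.53, 0.58 and 0.48. Col1a1 also missed the threshold without cre 1, cre 3, cre 7 or cre 10, in that order with adjusted p-values of 0.120, 0.135, 0.0670 and 0.0868 in limma, while its slopes of 0.67, 0.77, 0.89 and 0.77 stayed near 0.80. Col3a1 missed it without cre 3 (0.0552) at the same slope of 0.72. Both mice with low Adgre1 were in batch 1, where the Col1a1 slope was 1.03, against 0.12 in batch 2. For Col1a2 the slopes were 0.76 and 0.33 and for Col3a1 0.90 and 0.23. With 5 mice a batch these values carry no test. The mean of the 6 fibroblast and progenitor markers measured was also lowest in cre 9 (10.5) and cre 7 (10.7) among cre mice, with 10.7 to 11.7 in the other 8. Pdgfra and Ly6a of that list were not measured. The part of fibroblast content in these slopes was not tested.

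**Figure D4:**
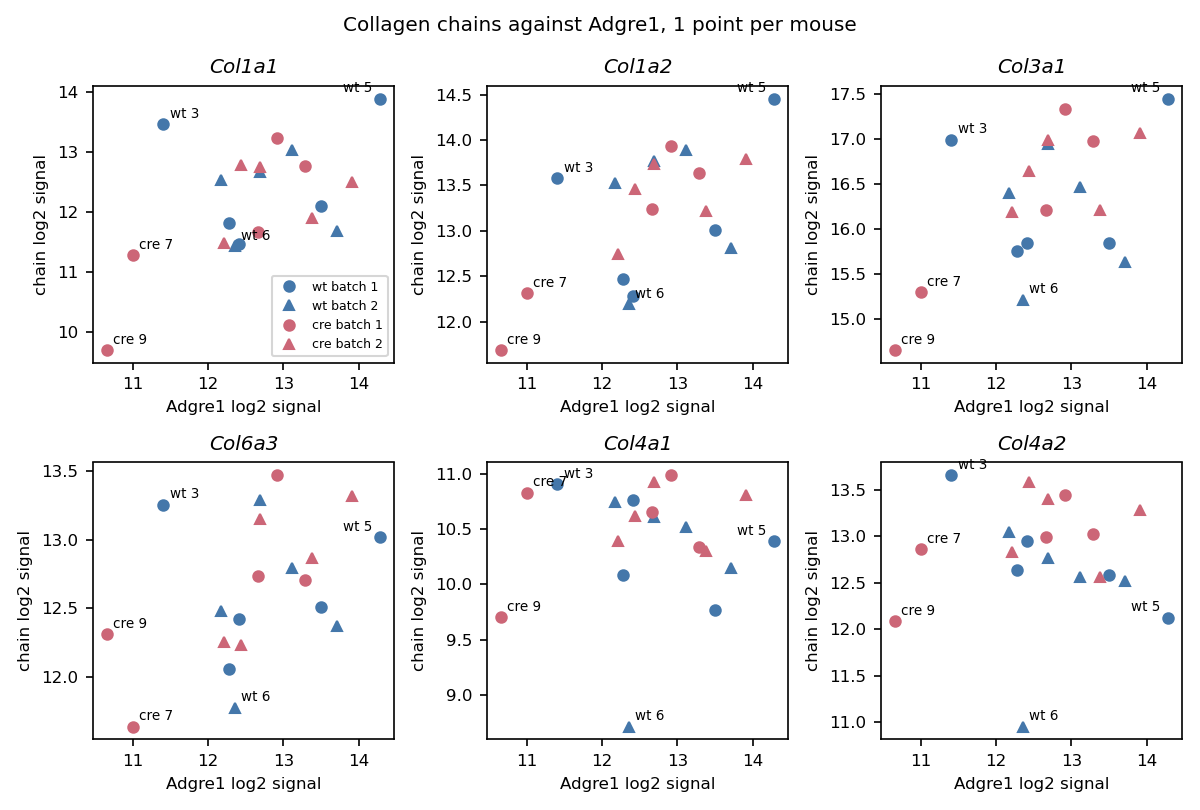
Log2 signals of 6 collagen chains (vertical) against that of Adgre1 (horizontal), 1 point per mouse, with circles for batch 1, triangles for batch 2, blue for wt and red for cre. The mice cre 7 and cre 9 lie apart at Adgre1 signals of 11.01 and 10.66, and wt 3 combines a low Adgre1 (11.41) with a high Col1a1 (13.47).

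As correlations within a genotype, centred by batch, Col1a1 and Adgre1 had r = 0.74 in cre (rho 0.73, exact permutation p = 0.0492, adjusted over all probe sets 0.333) and 0.17 in wt. Col1a2 had r = 0.87 in cre (rho 0.90, exact permutation p = 0.00903, adjusted 0.175) and 0.34 in wt. Col3a1 had r = 0.83 in cre (rho 0.90, exact permutation p = 0.0197, adjusted 0.229) and 0.13 in wt. Col6a3 had r = 0.76 in cre (rho 0.73, exact permutation p = 0.0222, adjusted 0.239) and 0.06 in wt. By this test, which enumerated 14400 regroupings within batches, 0 chains and 0 probe sets passed adjustment in either genotype. The smallest p it can give is 6.94e-05, so that 1 probe set alone could not pass adjustment over all of them. These counts of 0 therefore give no verdict on the limma calls. Without cre 7 and cre 9, r in cre was 0.23 for Col1a1, 0.52 for Col1a2, 0.38 for Col3a1 and 0.63 for Col6a3. These mice had the lowest Adgre1 signals of the cre group, so leaving them out narrowed the Adgre1 range. A narrower range lowers r even where a linear relation holds, so the drop does not show how far the relations rested on them.

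The slopes of the genotypes were also compared with each other, as the interaction of genotype and Adgre1. No chain and no probe set passed adjustment (0%). Point values were higher in cre for 32 chains and lower for 10, against 49.3% of all probe sets higher. Col3a1 (0.64, 95% interval 0.01 to 1.27) and Col4a2 (0.58, 95% interval 0.01 to 1.15) were above 0 and Col24a1 (−0.49, 95% interval −0.83 to −0.14) below 0 at an unadjusted p under 0.05, as were 3.96% of all probe sets, and limma's adjusted p was 0.995 for each. Without cre 7 and cre 9 no chain was above 0 at that unadjusted threshold, beside 1.40% of all probe sets. Then 26 of 42 point values were higher in cre (median 0.05, beside −0.02 for all probe sets). Without wt 3, 24 were higher and 18 lower (median 0.05, beside 0.00016). Again no chain was above 0 at that threshold, beside 1.63% of all probe sets. The chains above 0 there numbered 7 without wt 5 (2.25% of all probe sets) and 6 without wt 6 (3.18%). They numbered 0 without wt 4, wt 9, cre 1 or cre 7 alone (1.67% to 1.88% of all probe sets). With the macrophage list in place of Adgre1 they also numbered 0 (2.01%).

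**Figure D5:**
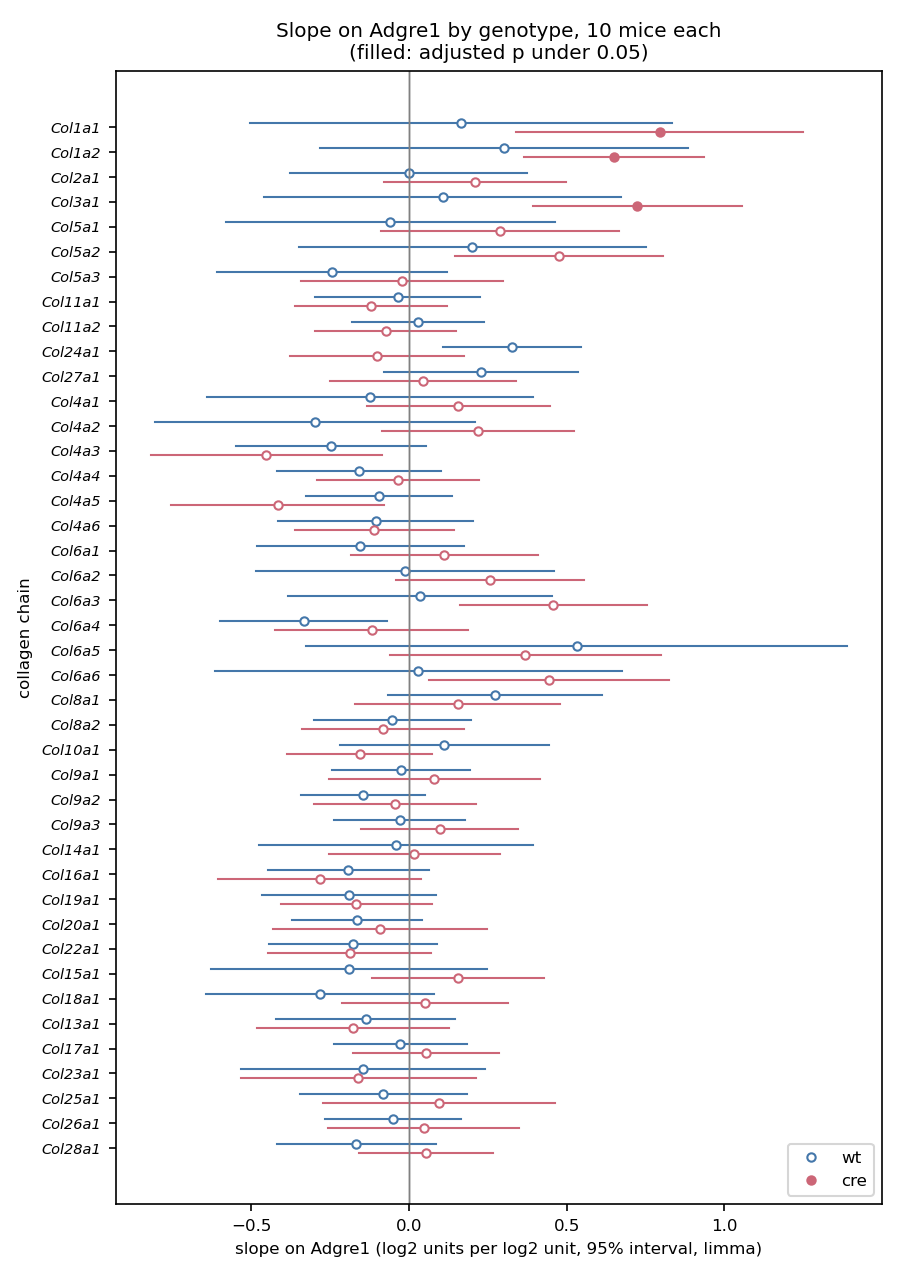
Slope of each collagen chain on Adgre1 (log2 units per log2 unit) with its 95% interval in wt (blue) and cre (red), 10 mice each, from limma with batch in the fit. Filled points pass an adjusted p of 0.05, which are Col1a1 (0.80), Col1a2 (0.65) and Col3a1 (0.72) in cre.

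At equal Adgre1, with its signal as a term in the genotype fit, no chain differed past adjustment, beside 0.00901% of all probe sets. Unadjusted, Col6a6 (0.89, SE 0.31, p = 0.00984) and Col9a3 (0.25, SE 0.12, p = 0.0494) were higher in cre in limma, where 6.62% of all probe sets passed 0.05. Col1a1 differed by −0.26 (95% interval −0.98 to 0.47), Col3a1 by 0.23 (−0.36 to 0.82) and Col4a2 by 0.43 (−0.10 to 0.97), so that the intervals of these main chains still held 0 on both sides.

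Genes that make, shape and read collagens were grouped by role, and none of them passed adjustment for genotype. The groups were prolyl and lysyl hydroxylation (14 measured genes), folding and secretion (11), propeptide processing (10), crosslinking (5), fibril assembly (16), collagen receptors (14), basement membrane partners (13), the TGF-beta axis (16), and gelatinases and collagenases with their inhibitors (12). The median difference of a group lay between −0.12 for crosslinking and 0.23 for the basement membrane partners. The mean of these partners was 8.85 in wt 6 and ran from 9.80 to 10.6 in the other mice. Their median difference without wt 6 was not taken. At an unadjusted p under 0.05, Sec23a, a coat protein of the secretory route that carries procollagen, was higher in cre (0.42, SE 0.16, limma adjusted p = 0.770). Mia3, which loads procollagen into that route, had −0.55 (SE 0.21, limma adjusted p = 0.770), and Timp1, an inhibitor of collagenases, −1.29 (SE 0.54, limma adjusted p = 0.772).

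On Adgre1 in cre mice, where 4.53% of all probe sets passed adjustment in either direction, the same groups passed for 5 of 12 gelatinases, collagenases and inhibitors, 5 of 14 collagen receptors, 5 of 16 fibril assembly genes, 2 of 16 genes of the TGF-beta axis and 1 each of the propeptide, crosslinking and basement membrane groups. None of the hydroxylation or folding genes did. The gelatinase Mmp2 had a slope of 1.11 (SE 0.20), the protease Ctsk 1.07 (SE 0.21) and the inhibitor Timp2 0.47 (SE 0.11). Lair1, an inhibitory collagen receptor of leukocytes, had 1.07 (SE 0.12), and Mrc1, which is also among the macrophage markers, had 0.59 (SE 0.13). Because Adgre1 marks macrophages, slopes above 0 were likely in advance for Lair1 and Mrc1 and say little about collagens. The receptors Antxr1, Adgrg6 and Cspg4 had 0.63, 0.74 and 0.76. Of the small proteoglycans that dress fibrils, Lum had 1.01 (SE 0.16) and Bgn 0.59 (SE 0.11), while Thbs2, a matrix thrombospondin, was the 1 gene of these groups with a called slope below 0 (−0.61, SE 0.16). Tgfb1 and its receptor Tgfbr1 had 0.55 and 0.76, Pcolce, which speeds removal of the procollagen end, 1.07, the crosslinking enzyme Lox 0.58 and the laminin chain Lama2 0.59. In wt mice 1 gene of these groups passed, Lair1 (1.37, SE 0.20, limma adjusted p = 0.0293), and no probe set passed in wt without wt 2, wt 3, wt 5, wt 7 or wt 9 alone. As for the chains, no probe set passed in cre without cre 7 and cre 9.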

How the data were processed

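RNA of whole fat pads was amplified, biotinylated and hybridised (labels' protocols). For 20 arrays the authors deposited log2 signals of 22206 probe sets and per the submitters' processing notes used Transcriptome Analysis Console 4.0.2.15, RMA and mm10. RMA usually makes arrays alike, which hides changes common to most genes. Any adjustment for batch is not given in the sources used here. The number of mice limits the precision.

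Group, batch and number came from sample titles, which call the mice biological replicates. Platform annotation named 19572 probe sets, and 2634 were unnamed. All 42 chains matched RefSeq (mm10) by gene number. Col7a1 and Col12a1 were not analysed here. Coordinates are those of RefSeq genes.

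Differences and slopes were fitted with limma 3.58.1 in R 4.3.3 (lmFit, eBayes without trend, batch as a term, Benjamini-Hochberg over all probe sets, threshold 0.05). The fits were also run on simulated data with independent noise in each probe set, which does not test calls that depend on single mice. Slope tests left out the Adgre1 probe set. Permutations used Python 3.11.15, NumPy 2.4.6 and SciPy 1.17.1 (two-sided). Exact tests of 10 mice allow no p under 6.94e-05.

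The members, classes and gene lists were chosen with earlier results of these data known. Named in full were Col1a1, Col3a1, Col4a1, Col4a2, Col6a3, Col5a3, Col15a1, Col18a1, each chain past adjustment in any test, and the 3 chains with the smallest p for genotype, with up to 5 similar genes for Col1a1, Col4a1 and Col6a3, and list members by smallest p. Alternatives were the batch term, the prior, a filter of the 7402 dimmest probe sets, renormalization, array weights, the replicate number as a block, a macrophage list in place of Adgre1, each batch and leaving out mice. Replicate numbers were not used to pair the mice in the main fits, and whether they pair littermates was not tested.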

Additional observations from a re-analysis of the deposited data

Results flagged for a closer look

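Of 84 groups of 10 mice, 1 per chain and genotype, 2 held a mouse far from the others by Dixon's test at 95%, which by chance flags about 1 in 20 groups. Col4a1, a chain of the common basement membrane network, was at 8.72 in wt 6, and the nearest other wt mouse was at 9.77. Col20a1, a fibril-associated chain, was at 6.93 in cre 5, and the nearest other cre mouse was at 7.77.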

How the results depend on the processing

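No chain passed adjustment for genotype, for the wt slope, for the slope difference or at equal Adgre1 under any alternative run. The 3 calls of the cre slope fell to 0 without the 2 cre mice farthest from the Adgre1 median and ranged from 0 to 4 when 1 mouse was left out. Col1a1 alone also missed the threshold with a trended robust prior (slope 0.80, limma adjusted p = 0.0680) and after quantile normalization (slope 0.76, 0.0691), beside a slope of 0.80 as reported. Over all probe sets, the cre slope gave 1006 calls, 0 without those 2 mice and 322 to 1032 without 1. The wt slope gave 123, 191 without batch, 8 after quantile normalization, 421 with the macrophage list, 0 without the 2 mice farthest out, without wt 4, wt 6 and wt 9, or without wt 5 and wt 6, and 0 to 563 without 1 mouse. Genotype gave 1 call, 0 in either batch alone, 2 with Adgre1 as a covariate and 1 to 2 without 1 mouse. With the replicate number as a block it gave 0 (1293 unadjusted by limma), no chain was called and 1 was unadjusted. Of 10 numbered pairs 4 had correlated deviations over 0.1 (−0.30 to 0.34), and 4 mice were closest to their own number. The stated selection without its fold took 1397 probe sets instead of 232. Taking the probe set with the widest interquartile range changed no chain. The set of wt 4, wt 6 and wt 9, the sets with wt 5, wt 6, cre 7 and cre 9 and the fibroblast covariate were chosen after seeing the data.

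Signs turned for differences near 0. Cre minus wt in batch 1 alone was −0.28 for Col3a1, −0.10 for Col5a3, −0.08 for Col6a3 and −0.18 for Col18a1, and in batch 2 alone 0.01 for Col1a1 and 0.15 for Col1a2. Col1a2 was 0.01 after quantile normalization, 0.05 with array weights, 0.11 with Adgre1 and 0.16 with the fibroblast list as a covariate, and 0.28 without wt 5, wt 6, cre 7 and cre 9, where Col1a1 was 0.04 and Col18a1 −0.11. Col18a1 was −0.04 with array weights, −0.01 with Adgre1 and −0.02 with the fibroblast list. Without wt 4, wt 6 and wt 9, and with all cre mice kept, Col3a1 was −0.10, Col6a3 −0.09 and Col18a1 −0.05. Without 1 mouse Col1a2 ranged from −0.15 to 0.14, Col3a1 from −0.03 to 0.30, Col5a3 from 0.02 to 0.20, Col6a3 from −0.03 to 0.19 and Col18a1 from −0.10 to 0.10. Wt slopes without wt 5 and wt 6 were −0.55 for Col1a1, −0.31 for Col1a2, −0.53 for Col3a1 and −0.26 for Col6a3, and without the 2 wt mice farthest out −0.29 for Col1a1, −0.28 for Col3a1 and −0.10 for Col6a3. The Col6a3 slope was −0.04 after quantile normalization and −0.07 without wt 4, wt 6 and wt 9. Without 1 mouse wt slopes ranged from −0.39 to 0.63 for Col1a1, −0.12 to 0.64 for Col1a2, −0.35 to 0.41 for Col3a1 and −0.12 to 0.30 for Col6a3, and the slope difference of Col1a2 from −0.01 to 0.65. The cre slope of Col4a2 was −0.09 without cre 7 and cre 9. The correlation of Col4a3 and Col4a4 was −0.04 after quantile normalization, and that of Col8a1 and Col8a2 0.09 without the 2 mice farthest out. The cause of these changes was not tested.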
